A study of Mus musculus with 12 samples.

Results

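The 9 genes that place the front of the neural tube and its midbrain-hindbrain border were followed in mouse gastruloids, namely *Otx1*, *Otx2*, *Six3*, *Hesx1*, *Lhx2*, *Rax*, *En1*, *En2* and *Gbx2*. They were taken by name, 9 of the 38911 genes in the data, and the counts of all RefSeq transcripts of a gene were added up. Gastruloids, a culture model of the early embryo's body axis, are grown from clumps of embryonic stem (ES) cells. Here they came from E14TG2a, an established mouse ES cell line kept in 2iLIF (a Wnt agonist, an ERK inhibitor and LIF) and plated at 200 cells each, and the whole gastruloids of a treatment were pooled and harvested on day 4. All 4 groups shared the cell line, the 2iLIF culture, the plating and a Wnt agonist pulse given before the treatment, and differed only in the medium from day 3 to day 4. The control received 1× glucose (21.25 mM), a further group 5 mM 2-deoxy-D-glucose (2-DG, a glucose analog) in 1× glucose, and the others no glucose (0×) or 3× glucose (63.75 mM). PolyA RNA was sequenced with 3 libraries in each group, made from ES cells at passage 13, 15 or 16. The labels do not say whether the passages differ in anything else, such as the day of the experiment, and p-values measure only the spread between these libraries.

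In the vertebrate embryo, the neural plate is divided along the head-to-tail axis by transcription factors that repress each other's domains. *Otx2*, with *Otx1*, marks the forebrain and midbrain, *Gbx2* marks the anterior hindbrain, and the border where they meet becomes a signaling center that expresses *En1*, *En2*, *Fgf8* and *Wnt1*. *Six3* and *Hesx1* act in the most anterior forebrain, and *Rax* and *Lhx2* in the eye field. Gastruloids made with a Wnt agonist are known for posterior cell types, with a spinal cord-like neural tissue and little or no brain. *Otx2* and *Gbx2* are also expressed in the epiblast before the neural plate forms, and *Gbx2* in the primitive streak and tail bud. A bulk library does not show which cells a count came from, and fewer cells of a type cannot be told apart from less RNA per cell.

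The 12 libraries held 31902471 to 45956080 counts each. *Gbx2* took 51590 of the counts of the 9 genes, or 94.9%, and the other 8 genes shared the rest. Levels are given as CPM (counts scaled for library size, with TMM factors) and, where genes are set against each other, as CPM per kb of merged exons. On the scale per kb, *Gbx2* had a mean level of 53.0 over the 12 libraries (35.8 to 66.3), *En2* 0.703 (0.489 to 0.972), *Lhx2* 0.417 (0.295 to 0.617), *En1* 0.137 (0.0623 to 0.313), *Rax* 0.132 (0.0496 to 0.205) and *Otx1* 0.112 (0.0201 to 0.175). *Hesx1* followed with 0.0841 CPM per kb, *Otx2* with 0.0235 and *Six3* with 0.00274, and each of these was at 0 in some libraries. The range of *Gbx2* lay above that of *En2*, and in every library its level per kb was 54.7 to 98.2 times that of *En2*. From *En2* down, the ranges of each gene and the next overlapped. Among the 26382 genes with a count, *Gbx2* stood at the 91.0th percentile of mean CPM, *En2* at the 54.1st and *Otx2* at the 30.1st.

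**Figure D1:**
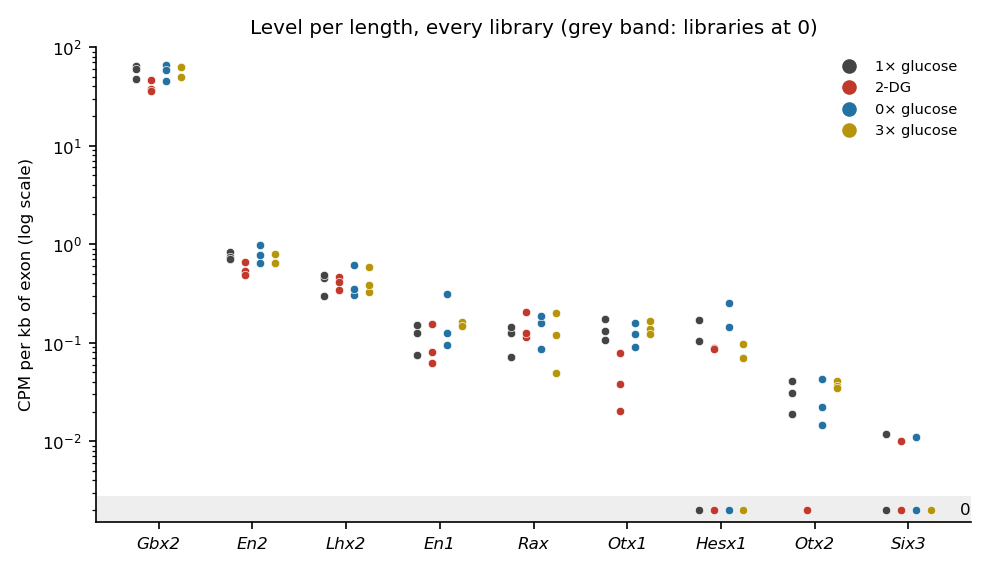
Level of each gene in every library, in CPM per kb of merged exons on a log axis, with libraries at 0 in the grey band and treatments in color. *Gbx2* (mean 53.0) stands above *En2* (mean 0.703) in every library, and *Six3* is at 0 in 9 of the 12.

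The filter on low counts (edgeR's filterByExpr) kept 16966 genes, among them *Otx1*, *Lhx2*, *Rax*, *En1*, *En2* and *Gbx2*. *Otx2*, *Six3* and *Hesx1* had too few counts and are described without the main test. Because a gene that is high in only 1 group can pass through that group alone, the 6 tested genes do not stand for all 9.

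The regulatory sequences before the transcription starts of *Otx2* and *Gbx2* are shown because these genes mark the opposite sides of the border and had the lowest and the highest counts in 2-DG. RefSeq promoter sequences (GRCm38.p6) were matched for *Otx2*, *Six3*, *Hesx1*, *Lhx2*, *En1* and *Gbx2*, with 10 starts in all, and the 250 bases before each start were searched on both strands. The motifs were TAATTA, the core that many homeodomain proteins bind, TAATCC, the form that Otx proteins prefer, and 4 TCF/LEF forms (CTTTGAA with its variants CTTTGAT plus CTTTGTA plus CTTTGTT), which mark Wnt-responsive elements. Capitals mark matches, the sequences run 5′ to 3′ on the gene's strand, and all 3 lie on the minus strand at chr1:89931177-89931426 (*Gbx2*), chr14:48667645-48667894 (*Otx2*, the most upstream start) and chr14:48665110-48665359 (*Otx2*, a downstream start).
Gbx2: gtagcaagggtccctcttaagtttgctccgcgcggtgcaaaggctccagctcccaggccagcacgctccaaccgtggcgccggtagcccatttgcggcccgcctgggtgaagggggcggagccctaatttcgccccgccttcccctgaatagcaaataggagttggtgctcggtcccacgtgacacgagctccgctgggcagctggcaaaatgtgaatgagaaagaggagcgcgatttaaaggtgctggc
Otx2 upstream start: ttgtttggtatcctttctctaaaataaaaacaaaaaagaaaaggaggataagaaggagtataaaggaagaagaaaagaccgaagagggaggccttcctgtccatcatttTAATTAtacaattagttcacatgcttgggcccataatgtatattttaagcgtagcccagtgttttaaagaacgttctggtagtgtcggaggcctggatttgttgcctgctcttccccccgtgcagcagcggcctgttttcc
Otx2 downstream start: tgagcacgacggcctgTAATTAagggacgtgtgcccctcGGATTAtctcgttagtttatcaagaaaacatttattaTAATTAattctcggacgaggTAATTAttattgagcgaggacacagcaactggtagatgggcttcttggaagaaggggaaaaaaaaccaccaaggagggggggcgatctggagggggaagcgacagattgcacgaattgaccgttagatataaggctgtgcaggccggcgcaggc
Of the 4 listed *Otx2* starts, the 2 with a match are shown, and the sources used here do not give which start belongs to the transcript that was counted. The upstream *Otx2* start has 1 homeodomain core, 141 bases before the start. The downstream start has 3 cores, at 234, 174 and 154 bases before it, and 1 TAATCC on the opposite strand at 211 bases. No other start of the 10 has a match to any of these motifs, *Gbx2* among them, and its window has 61.6% G and C against 42.0% at the upstream *Otx2* start. Among all 32851 promoter windows of this length, 4.84% hold TAATTA, 6.25% hold TAATCC and 14.8% hold a TCF/LEF form. These are matches of letters and do not show binding.

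*Otx1* was lower in 2-DG, the sharpest drop among the tested genes, and *Otx2* was at 0 counts in every 2-DG library and above 0 in each of the other 9. *Gbx2* and *En2* had lower values in 2-DG than in 1× glucose in 3 of 3 passages, and did not pass the main test but passed it when libraries of the same passage were paired. *Lhx2*, *Rax* and *En1* had no difference past the threshold. The comparison asks what the glucose analog changes relative to its own medium.

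*Otx1* lies on the minus strand at chr11:21994764-22001651 (GRCm38.p6) and codes for a homeodomain factor of the forebrain and midbrain. Its counts at passages 13, 15 and 16 were 26, 27 and 44 for the control, 7, 4 and 16 with 2-DG, 27, 22 and 16 without glucose and 26, 22 and 37 with 3× glucose. In CPM these were 0.571, 0.710 and 0.951 in 1× glucose and 0.205, 0.109 and 0.426 in 2-DG, so that every 2-DG library lay below every library of the other groups, whose lowest value was 0.493. The group means were 0.744 ± 0.192 CPM for the control and 0.247 ± 0.163 CPM with the analog (SD, n = 3 each). On the log2 scale the fitted difference was −1.57 (standard error 0.42, 95% interval −2.49 to −0.66), with an adjusted p of 0.0260 by edgeR's quasi-likelihood test with Benjamini-Hochberg adjustment. Within the passages, the log2 ratios of 2-DG to 1× glucose were −1.42, −2.56 and −1.13. Leaving out 1 library kept the log2 difference between −2.23 and −1.22, with the larger drop without 2-DG passage 16 (−2.23). The call was lost without 1× glucose passage 15 (adjusted p = 0.0595) or 16 (0.0803) and without 2-DG passage 13 (0.0825) or 15 (0.0809), by the same edgeR test. It was also lost with only the 2 groups in the fit (log2 difference −1.575, adjusted p = 0.0780, range over all alternatives 0.00731 to 0.0825, edgeR and DESeq2).

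*Otx2*, on the minus strand at chr14:48656781-48667644, is the closest relative of *Otx1* and is needed for the forebrain and midbrain. It had 0, 0 and 0 counts in 2-DG, against 6, 3 and 8 in the control, 3, 6 and 2 without glucose and 6, 5 and 6 with 3× glucose. Among the 26382 genes with a count, 11 genes (0.0417%) had 0 counts in every 2-DG library and a count in each of the others. With a floor of 3 counts over the group put in for its 0, *Otx2* was 4.76-fold lower in 2-DG than in 1× glucose (17 counts over the group). Against 0× glucose (11 counts) it was 4.01-fold lower. The 95% counting intervals were 0 to 3.69 counts over the group in 2-DG, 9.90 to 27.2 in 1× glucose and 5.49 to 19.7 in 0× glucose. These fold values are thus no lower bounds. The counting intervals treat these counts, which StringTie assigned to transcripts, as plain tallies of reads. A count of 0 need not mean an absence of reads, so the intervals are a rough guide at best. They cover counting error only, and the floor leaves out that of the group set against it. Without the filter on low counts, edgeR's quasi-likelihood test gave *Otx2* an adjusted p of 0.0119 against 1× glucose, in a fit that called 9.01% of 26382 genes, and DESeq2 gave it no adjusted p. All 45 counts fell on 1 of the 12 listed transcripts, a predicted model. The antisense neighbor *Otx2os1* had 0 counts in all libraries.

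*Six3*, which represses Wnt genes in the most anterior forebrain, had 3, 2, 2 and 0 counts in the 1× glucose, 2-DG, 0× glucose and 3× glucose groups, at or under the floor in each. Its neighbor *Six3os1* had 13 counts in all, with at most 3 in a library. *Hesx1*, a repressor of the anterior neural plate and pituitary, had 0, 8 and 6 counts in the control, 0, 4 and 4 with 2-DG, 10, 6 and 0 without glucose and 3, 0 and 5 with 3× glucose. The groups of both genes overlapped, and a difference was not detectable at this depth.

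*Gbx2*, on the minus strand at chr1:89927962-89931176, codes for a homeodomain factor of the anterior hindbrain that opposes *Otx2* at the border. Its levels were 140.4, 102.3 and 129.8 CPM for the control, 82.5, 77.9 and 100.6 CPM with 2-DG, 144.2, 97.4 and 126.3 CPM in 0× glucose and 137.8, 108.0 and 137.3 CPM in 3× glucose. Every 2-DG library lay below every 1× and 3× glucose library, whereas its highest value (100.6) was above the lowest of 0× glucose (97.4). The control averaged 124.2 ± 19.7 CPM and the analog 87.0 ± 12.01 CPM (SD, n = 3 each), with a fitted log2 difference of −0.51 (standard error 0.17, 95% interval −0.88 to −0.15). The adjusted p was 0.0574 by edgeR's quasi-likelihood test, which misses the threshold of 0.05. The log2 ratios within passages were −0.77, −0.39 and −0.37. With the passage as a block, which pairs libraries of the same passage, the value was −0.50 (95% interval −0.68 to −0.33, adjusted p = 0.000511, same test), and over all alternatives the adjusted p ran from 0.000511 to 0.182. It was also called by DESeq2 (adjusted p = 0.0152) and, by edgeR's test, without 1× glucose passage 15 (0.0419).

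*En2*, which follows *En1* at the midbrain-hindbrain border and later acts in the cerebellum, had 2.94, 2.60 and 2.53 CPM in the control, and with 2-DG it had 1.903, 2.32 and 1.73 CPM. The 3 libraries of 2-DG lay below the 3 of 1× glucose, but not below all of 0× and 3× glucose, whose lowest values were 2.27 CPM each. By edgeR's quasi-likelihood test, its log2 difference of −0.44 (standard error 0.18) was not called (adjusted p = 0.123). With the passage as a block it was −0.43 (adjusted p = 0.0389, same test, range over all alternatives 0.0389 to 0.317). *En1*, the other engrailed gene, had 6 to 26 counts a library and was spread widely within groups, from 0.247 to 0.820 CPM in 0× glucose alone. Its log2 fold change in 2-DG was −0.22 (95% interval −1.34 to 0.90, adjusted p = 0.817, same test), an interval that holds changes in both directions.

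*Lhx2*, a LIM homeodomain factor of the eye field and forebrain, had 59, 75 and 98 counts for the control, against 51, 75 and 68 with 2-DG. The mean levels were 1.80 ± 0.439 and 1.78 ± 0.276 CPM (SD, n = 3 each), with a log2 fold change of −0.01 (95% interval −0.70 to 0.68, adjusted p = 0.991, edgeR's quasi-likelihood test). *Rax*, needed for the eye field, had 19, 28 and 39 counts for the control, against 23, 27 and 45 with 2-DG. Its log2 fold change was 0.39 (95% interval −0.66 to 1.43, adjusted p = 0.637, same test), and the groups overlapped.

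**Figure D2:**
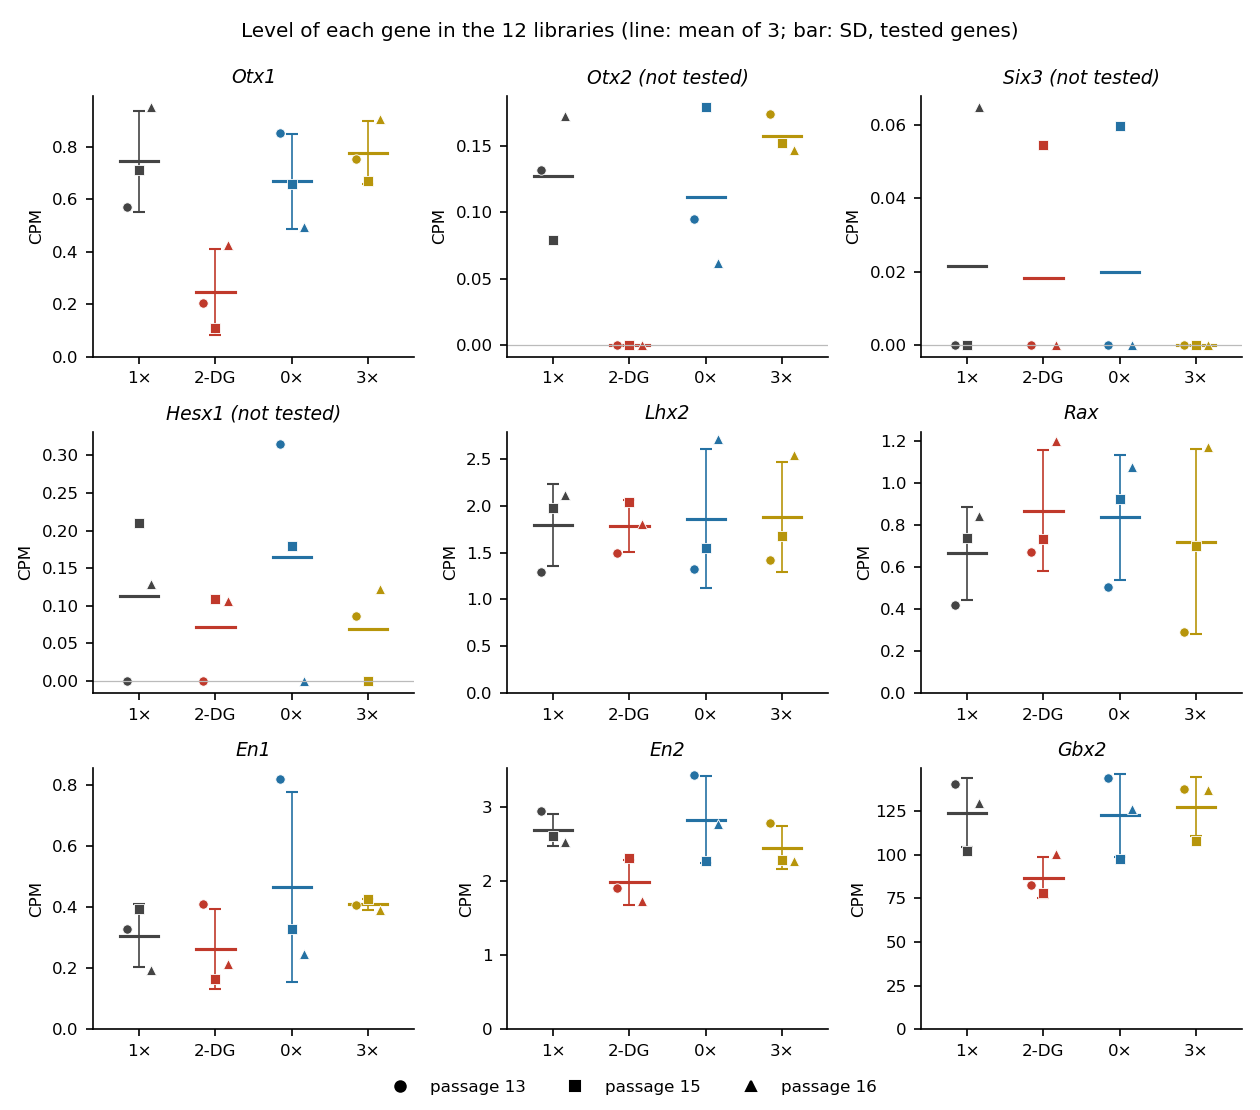
CPM of the 9 genes in the 12 libraries by treatment, with a marker for each ES cell passage, a line at the mean of 3 libraries and, for tested genes, a bar of 1 SD. The 2-DG libraries of *Otx1* (at most 0.426 CPM) and *Otx2* (0) lie below all others, those of *Gbx2* and *En2* below all of 1× glucose.

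Counted over the genes, 1 of the 6 tested (*Otx1*) was called in 2-DG against 1× glucose, where 17.6% of the 16966 genes tested were called and 8.51% were called as lower. With the passage as a block, 3 of the 6 were called (*Otx1*, *En2* and *Gbx2*, all lower), where 41.3% of the genes were called and 20.2% were called as lower. With so few genes, and no test of these shares against the background, the counts as such are no result about these genes. Every 2-DG library was below every 1× glucose library for 4 of the 9 genes, where this held for 12.1% of the genes with a count, and below every library of the other groups for 2 of the 9, where it held for 7.41%.

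No tested gene passed the threshold where only the glucose level changed, in comparisons that share the 1× glucose libraries with that of 2-DG. In 0× glucose against 1× glucose, 0 of the 6 tested genes were called by edgeR's quasi-likelihood test and by DESeq2, none had an unadjusted p under 0.05, and 2 of all genes (0.0118%) were called. The log2 fold changes were −0.02 for *Gbx2* (95% interval −0.38 to 0.35), 0.07 for *En2* (−0.33 to 0.47), −0.16 for *Otx1* (−0.996 to 0.68), 0.05 for *Lhx2* (−0.64 to 0.75), 0.33 for *Rax* (−0.72 to 1.39) and 0.60 for *En1* (−0.46 to 1.67). The interval is narrow only for *Gbx2* and *En2*. The value of *En1* rested on passage 13 of 0× glucose, with 26 counts against 11 and 8 in the other libraries of that group.

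In 3× glucose against 1× glucose, 0 of the 6 were again called by either tool, none with an unadjusted p under 0.05, and edgeR called 0 of all genes (0%), with 178 genes at an unadjusted p under 0.05 and 2 called by DESeq2. The log2 fold change was 0.04 for *Gbx2* (95% interval −0.33 to 0.41), 0.06 for *Otx1* (−0.76 to 0.89) and −0.14 for *En2* (−0.53 to 0.26). *En1* had 0.42 (−0.65 to 1.49), *Rax* 0.13 (−0.92 to 1.19) and *Lhx2* 0.07 (−0.62 to 0.76).

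The difference between 2-DG and glucose removal was tested directly, and this comparison shares its 2-DG libraries with the one above. *Otx1* had 0.852, 0.657 and 0.493 CPM in 0× glucose, all above 2-DG, and a log2 fold change of −1.42 (standard error 0.42, 95% interval −2.35 to −0.48), and it passed edgeR's quasi-likelihood test (adjusted p = 0.0406). Without 1 library the value ran from −2.07 (without 2-DG passage 16) to −1.06. This call too was lost without single libraries, namely 2-DG passage 13 (adjusted p = 0.117) or 15 (0.116) and 0× glucose passage 13 (0.114) or 15 (0.0891), by the same test. It was also lost without the filter on low counts (adjusted p = 0.0579) and with only the 2 groups in the fit (0.0998), and over all alternatives its adjusted p ran from 0.0115 to 0.117 (edgeR and DESeq2). *Gbx2* had a log2 fold change of −0.49 (adjusted p = 0.0625) and *En2* of −0.51 (adjusted p = 0.0760), by the same test. With the passage as a block these were −0.48 (adjusted p = 0.000633) and −0.50 (adjusted p = 0.0224), and 3 of the 6 genes were called, where 43.1% of all genes were called and 21.5% were called as lower. Without the block, 1 of the 6 was called, where 18.9% of all genes were called and 9.04% as lower. Both *Gbx2* (adjusted p = 0.0334) and *En2* (0.0497) were also called by edgeR's test without 0× glucose passage 15. The adjusted p over all alternatives ran from 0.000633 to 0.192 for *Gbx2* and from 0.0224 to 0.235 for *En2*. *En1* differed by −0.82 (95% interval −1.93 to 0.28), which became −0.14 without 0× glucose passage 13, *Lhx2* by −0.06 and *Rax* by 0.06, none past the threshold. *Otx2*, tested without the filter on low counts, had an adjusted p of 0.0142 (edgeR), in a fit that called 9.79% of the genes.

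**Figure D3:**
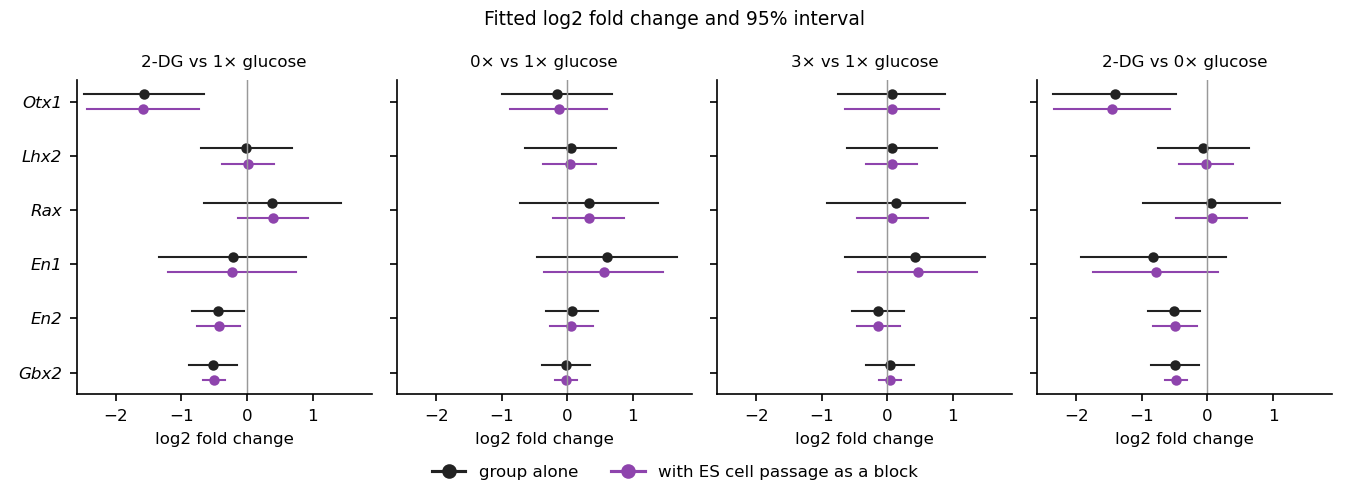
Fitted log2 fold change with its 95% interval for the 6 tested genes in 4 comparisons, without (black) and with (purple) the ES cell passage as a block. *Otx1*, *En2* and *Gbx2* lie below 0 in both comparisons of 2-DG, and the block narrows the interval of *Gbx2* from −0.88 to −0.15 to −0.68 to −0.33.

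*Rax*, *Lhx2* and *Gbx2* differed between ES cell passages. *Rax* had 0.417, 0.673, 0.505 and 0.290 CPM in the passage 13 libraries of 1× glucose, 2-DG, 0× and 3× glucose, 0.737, 0.736, 0.926 and 0.701 CPM in passage 15, and 0.843, 1.199, 1.08 and 1.17 CPM in passage 16. Every passage 13 library was below every other library, and the log2 difference of passage 16 from passage 13 was 1.21. *Lhx2*, with 1.38 ± 0.0906 CPM in passage 13, 1.81 ± 0.234 in passage 15 and 2.30 ± 0.409 in passage 16 (SD, n = 4 each), was likewise lowest in passage 13 in 4 of 4 treatments. *Gbx2* had another order: passage 15 (96.4 ± 13.1 CPM) was below passage 13 (126.2 ± 29.3) and passage 16 (123.5 ± 15.9) in 4 of 4 treatments (SD, n = 4 each).

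The 3 genes differed between passages by edgeR's quasi-likelihood test on the passage term (adjusted p = 0.00359 for *Rax*, 0.00986 for *Lhx2* and 0.00178 for *Gbx2*), and kept this call without any 1 of the 12 libraries. *Otx1* (adjusted p = 0.447), *En1* (0.1497) and *En2* (0.254) were not called, by the same test. These 3 of 6 stand against 46.2% of all genes tested, so that a passage effect is no mark of these genes. For *Lhx2* the split of counts between transcripts varied by library: a predicted model took 68.1% of its counts over all libraries, between 11.5% and 100% of a library, and the curated transcript 29.7%, between 0% and 83.0%. With the most abundant transcript alone, *Lhx2* was no longer called for passage (adjusted p = 0.519, range over all alternatives 0.00271 to 0.519).

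**Figure D4:**
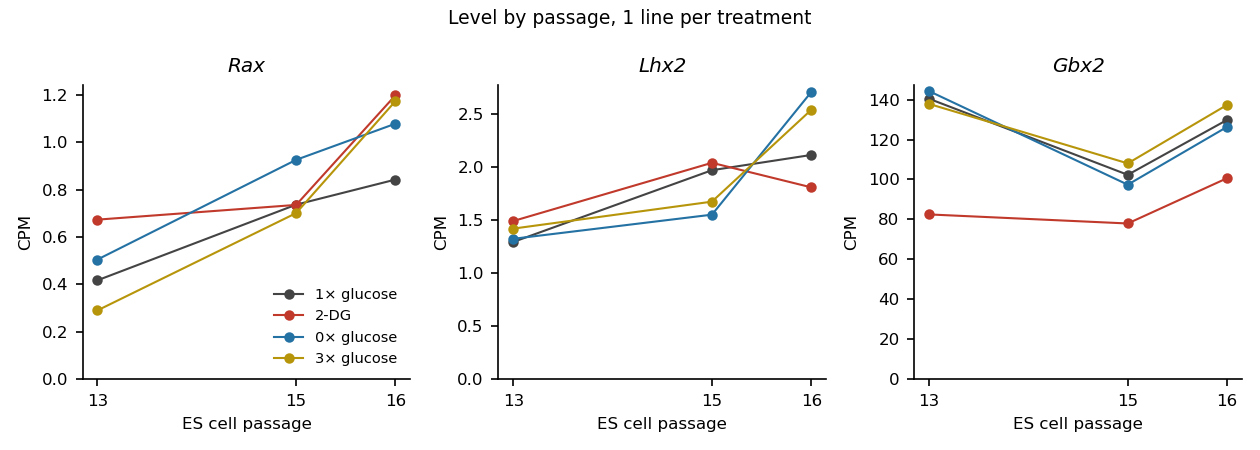
CPM of *Rax*, *Lhx2* and *Gbx2* against the ES cell passage, 1 line per treatment. *Rax* is lowest in passage 13 in all 4 treatments, and *Gbx2* is lowest in passage 15, with the 2-DG line below the other 3 in each passage.

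Genes that work beside these factors were counted from lists. Of 19 other forebrain and eye field factors, 12 were tested, and in 2-DG against 1× glucose 2 were called as higher and 1 as lower, with 9 of the 12 below 0. Their median log2 fold change was −0.58, against 0.00 for all 16966 genes, of which 49.7% were below 0. Against 1× glucose, 9 of the 12 were also below 0 in 3× glucose (median −0.21), and 2 in 0× glucose (median 0.12). *Lhx5*, a LIM homeodomain factor of the anterior forebrain, fell from 1.10 ± 0.159 to 0.237 ± 0.101 CPM (log2 fold change −2.19, standard error 0.33) and passed edgeR's quasi-likelihood test (adjusted p = 0.00176). *Pax6*, a factor of the eye, forebrain and also of the spinal cord, rose from 3.77 ± 0.906 to 9.24 ± 5.72 CPM (1.29, standard error 0.40, adjusted p = 0.0464), and *Vax2*, a ventral eye factor, from 0.391 ± 0.0245 to 1.26 ± 0.562 CPM (1.68, standard error 0.41, adjusted p = 0.0190), by the same test and with n = 3 each. *Pax6* lost its call in 5 of the 6 fits without 1 library and *Vax2* in 4 of 6. With the passage as a block, 2 of the 12 were called as higher and 6 as lower, beside 41.3% of all genes called and 20.2% called as lower. *Fezf1* was at 0 in all libraries.

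Of 14 other genes of the midbrain-hindbrain border, 10 were tested, with 2 lower, 1 higher and a median of −0.14. *Fgf8*, the main secreted signal of the border and also a tail bud gene, averaged 79.0 ± 27.2 CPM for the control, against 79.3 ± 7.49 CPM with the analog (SD, n = 3 each, adjusted p = 0.994, edgeR's quasi-likelihood test). *Wnt1*, the other signal of the border, had 2, 5, 0 and 0 counts in the 1× glucose, 2-DG, 0× and 3× glucose groups. *Fgf17*, a close relative of *Fgf8*, fell from 28.7 ± 17.0 to 4.30 ± 0.524 CPM (log2 fold change −2.74, standard error 0.52, adjusted p = 0.00572, same test). *Il17rd*, a feedback inhibitor of FGF signaling, fell from 294.2 ± 71.7 to 144.6 ± 15.6 CPM (−1.02, standard error 0.23, adjusted p = 0.0130), and was not called in 1 of the 6 fits without 1 library. *Irx2*, a homeodomain factor of the hindbrain and midbrain, rose from 18.0 ± 2.49 to 28.7 ± 2.90 CPM (0.68, standard error 0.15, adjusted p = 0.0127). With the block, 2 were higher and 3 lower, beside 41.3% of all genes called.

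Of 11 hindbrain genes, 10 were tested, with 3 higher, 2 lower and a median of 0.13. Of all genes, 17.6% were called and 8.51% were called as lower. With the block, 4 of the 10 were higher and 3 lower, beside 41.3% of all genes called and 20.2% called as lower. *Irx3*, a factor of the neural tube, rose from 11.6 ± 3.97 to 43.5 ± 17.9 CPM (log2 fold change 1.905, standard error 0.35) and passed edgeR's quasi-likelihood test (adjusted p = 0.00492). *Hoxa2* fell from 31.9 ± 1.54 to 24.6 ± 1.94 CPM (−0.37, standard error 0.09, adjusted p = 0.0141) and lost its call in 2 of the 6 fits without 1 library.

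All 14 anterior organizer genes and secreted antagonists were tested, with 3 lower, 1 higher, 9 below 0 and a median of −0.85. With the block, 8 were lower and 2 higher, beside 41.3% of all genes called and 20.2% called as lower. *Nog*, a BMP antagonist, fell from 1.70 ± 0.335 to 0.382 ± 0.202 CPM (log2 fold change −2.14, standard error 0.39) and passed edgeR's quasi-likelihood test (adjusted p = 0.00506), whereas *Chrd*, another BMP antagonist, rose from 4.34 ± 1.23 to 7.51 ± 0.820 CPM (0.79, standard error 0.19, adjusted p = 0.0189). *Sfrp1*, a secreted Wnt antagonist, fell from 77.3 ± 9.57 to 44.3 ± 2.21 CPM (−0.80, standard error 0.10, adjusted p = 0.000684), and *Frzb*, of the same family, from 86.0 ± 29.4 to 30.8 ± 7.07 CPM (−1.48, standard error 0.35, adjusted p = 0.0165). *Frzb* and *Chrd* each lost the call in 4 of the 6 fits without 1 library. In 0× and in 3× glucose against 1× glucose, 0 of the 46 tested genes of these 4 lists were called by edgeR's test, with or without the block, or by DESeq2, and 0 had an unadjusted p under 0.05. In 2-DG against 1× glucose, 15 of the 46 were called, beside the 17.6% of all genes. Of the 14 genes named here and among the markers that were called (*Lhx5*, *Pax6*, *Vax2*, *Fgf17*, *Il17rd*, *Irx2*, *Irx3*, *Hoxa2*, *Nog*, *Chrd*, *Sfrp1*, *Frzb*, *T* and *Sox1*), all kept their call with the block and by DESeq2. With the most abundant transcript of each gene alone, *Lhx5*, *Fgf17*, *Nog* and *Sfrp1* kept it and the other 10 lost it. *Irx2* then had an adjusted p of 0.443 (range over all alternatives 1.54e-05 to 0.443, edgeR and DESeq2), *Irx3* 0.0745 (1.67e-07 to 0.0745) and *Il17rd* 0.0975 (5.95e-05 to 0.0975), and *Chrd* turned to a log2 fold change of −0.13. With only the 2 groups in the fit, *Pax6* and *Chrd* lost their calls, and *Pax6* also did without the filter on low counts.

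**Figure D5:**
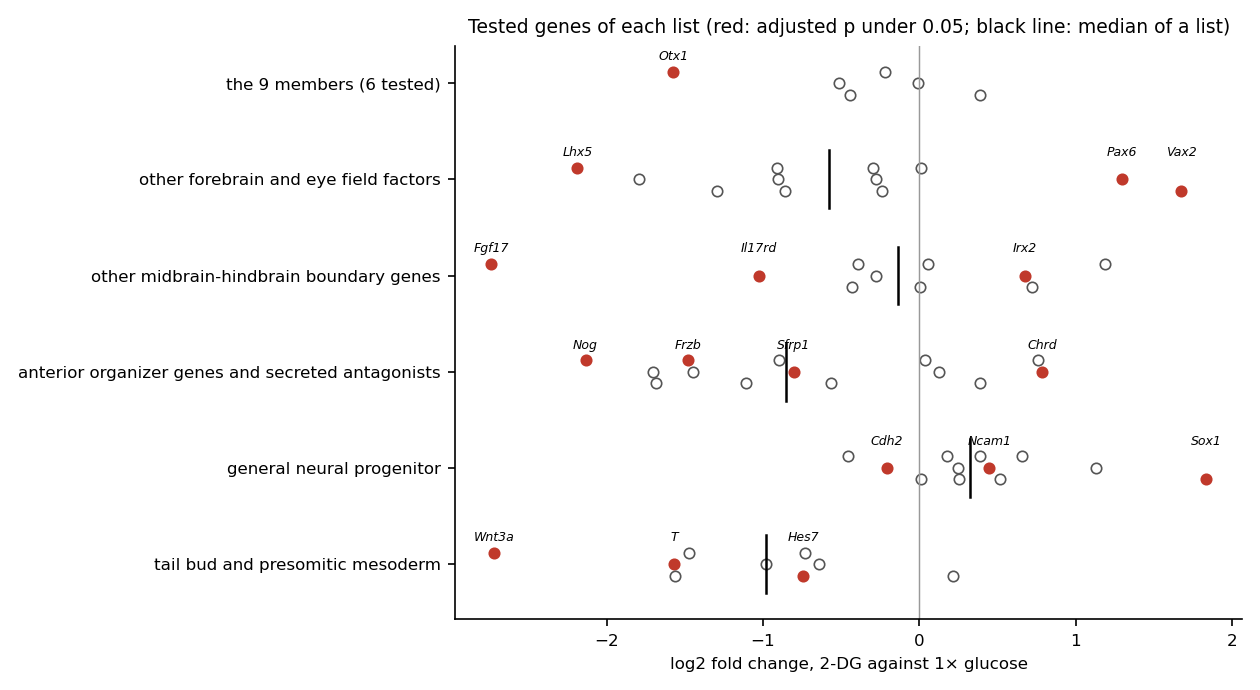
Log2 fold change of each tested gene of 6 gene groups in 2-DG against 1× glucose, in red and named where the adjusted p is under 0.05, with a line at the median of each list. *Otx1* is the called gene of the top row. The tail bud list has 8 of 9 genes below 0 (median −0.98), as it also had in 0× glucose (median −0.08, not drawn).

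Markers of cell types that a gastruloid can hold were counted in 5 lists in the same comparison. Over these lists 8 of the 42 tested genes were called, beside 17.6% of all genes, and 27 with the passage as a block, beside 41.3%. Of 9 tail bud and presomitic mesoderm markers, 3 were called, all lower in 2-DG, and 8 were below 0, all called as lower with the block. In 2-DG their median log2 fold change was −0.98. In 0× glucose against 1× glucose, 8 of these markers were also below 0 (median −0.08, 0 called), and in 3× glucose 0 were. Their summed level was 1017 to 1761 CPM in 1× glucose, 694 to 912 in 2-DG, 926 to 1752 in 0× glucose and 1150 to 1808 in 3× glucose, and *T* fell from 225.1 ± 84.6 to 75.9 ± 17.5 CPM (adjusted p = 0.0136, edgeR's quasi-likelihood test, not called in 2 of the 6 fits without 1 library). Of 12 general neural progenitor markers, 2 were called as higher and 1 as lower, with a median of 0.32 and a summed level of 704 to 824 CPM in 1× glucose and 708 to 894 in 2-DG. Among them *Sox1* rose from 5.58 ± 2.01 to 19.9 ± 8.11 CPM (adjusted p = 0.0185, same test, not called in 3 of the 6 fits without 1 library). With the block, 5 of these 12 markers were called as higher and 2 as lower. Of 11 epiblast and pluripotency markers, 2 were called as higher and 0 as lower, with a median of 0.55. With the block, 6 of the 11 were called as higher and 1 as lower. Their summed level was 197 to 232 CPM in 1× glucose and 226 to 235 in 2-DG. Of the endoderm markers, *Ttr* and *Afp* were at 0 in all libraries, and 0 of the 4 tested were called by edgeR or DESeq2 or had an unadjusted p under 0.05. The summed level of the list was 5.53 to 12.1 CPM in 1× glucose and 6.32 to 9.46 in 2-DG. With the passage as a block, edgeR's test called *Foxa1* as higher (adjusted p = 0.0237) and *Sox17* as lower (0.0314). Of the 6 somite and endothelium markers, 0 were called by edgeR, with 1 at an unadjusted p under 0.05 and 1 called by DESeq2, and their summed level ran from 91.3 to 627 CPM in 1× glucose and from 242 to 559 in 2-DG. With the block, *Kdr* (adjusted p = 0.000131) and *Cdh5* (0.0175), both endothelial, were called as lower by edgeR's test. These 4 genes were named after their values were seen. The part of these cell types in the lower counts of *Otx1*, *Otx2* and *Gbx2* was not tested.

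The genes whose levels ran most closely with each tested gene were listed over the 12 libraries, which share treatments, passages and depth. After the mean of each passage was taken off, *Gbx2* ran closest to *Il17rd* (Pearson r = 0.995, log2 CPM) and *Limch1* (0.995) of 13695 genes, where the 99th percentile of r was 0.966. *Otx1* ran closest to *Smim8* (0.976) and *Nf2* (0.974), *En2* to *Pacsin3* (0.942) and *Adam1a* (0.941), *Rax* to *Enpp2* (0.931) and *Mdh2* (0.929), *En1* to *Nfkbib* (0.922) and *Uqcrb* (0.903), and *Lhx2* to *Gm3219* (0.876) and *1700037H04Rik* (0.847). With the passage means left in, the closest were *Acnat1* (0.971) and *Castor1* (0.963) to *Gbx2*, *Reep6* (0.956) and *Gm34335* (0.950) to *Otx1*, *Lhx1* (0.938) and *Zfp384* (0.928) to *Rax*, *Gm20482* (0.952) and *Dxo* (0.946) to *Lhx2*, *Gstm1* (0.915) and *Ecscr* (0.913) to *En2*, and *Nfkbib* (0.928) and *Tars* (0.886) to *En1*. Only *Nfkbib* appears in both lists for the same gene. Among the tested genes themselves, *Otx1* and *Gbx2* had r = 0.854 after the passage means were taken off, *En2* and *Gbx2* 0.803, and *Rax* and *Gbx2* −0.564. The values 0.854 and 0.803 lie below the 99th percentiles of r for *Otx1* (0.917), *En2* (0.851) and *Gbx2* (0.966).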

How the data were processed

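The authors deposited the counts of 120312 RefSeq transcripts per library, as StringTie assigned them after Trim Galore, HISAT2 (mm10, per the labels) and Picard duplicate removal on Galaxy. Versions and the strand setting are not given in the sources used here. The deposited tables of the authors' DESeq2 comparisons (log2 fold changes and p-values) were not used. Counts were summed per gene through RefSeq accessions (GRCm38.p6, all transcripts named), and exon lengths were taken from GENCODE M21.

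A single edgeR 4.0.16 model in R 4.3.3 held all 4 groups (filterByExpr, TMM, glmQLFit, glmQLFTest, two-sided, Benjamini-Hochberg, threshold 0.05) on 16966 genes, 31902471 to 45956080 counts a library, after a test on simulated data. Standard errors and 95% intervals were taken from the F statistic. Alternatives were the passage as a replicate block, DESeq2 1.42.0, median-of-ratios factors, no filter, the most abundant transcript alone, only the groups compared and leaving out each library. The passage numbers pair the libraries: deviations from group means of libraries of 1 passage correlated at 0.188 to 0.792 in 18 pairs, against −0.632 to 0.361 between passages. Among the treatment comparisons, only the fit with the block used this pairing, and the fit reported and those without 1 library did not. The common dispersion, edgeR's measure of the spread left by a fit, was 0.03165 without the block and 0.006303 with it. With 3 libraries against 3, an exact permutation test cannot go below p = 0.1 and was not used.

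The members and lists were chosen with earlier results of these data known. Named were all 9 members, *Fgf8*, *Wnt1*, *T* and *Sox1* beside a result, and up to 4 called genes by size of change in each list, the cell type markers excepted. Of the markers called in the fit reported, only *T* and *Sox1* were named, and not by size of change. Also named were the 2 genes closest to each tested member by Pearson r among genes with a mean of at least 1 CPM. Some called genes of the hindbrain list are not reported here.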

Additional observations from a re-analysis of the deposited data

How the results depend on the processing

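In 2-DG against 1× glucose, the number of the 9 genes called was 1 in the fit reported, 2 by DESeq2 (*Otx1* and *Gbx2*), 2 without the filter on low counts (*Otx1* and *Otx2*), 3 with the replicate block, 0 with only the groups compared and 0 to 1 when a library was left out. Genes called over the whole table went from 2990 to 653 with the most abundant transcript alone, 1896 with only the groups compared, 7001 with the block and 1734 to 2352 without 1 library. In 2-DG against 0× glucose, the members called went from 1 to 2 by DESeq2, 3 with the block, 0 with only the groups compared and 0 to 2 without 1 library, and all genes called from 3207 to 775 with the most abundant transcript alone, 7305 with the block and 2051 to 2619 without 1 library. In 0× glucose the 2 genes called became 11 by DESeq2, 0 with only the groups compared and 1 to 3 without 1 library, and in 3× glucose the 0 became 2 by DESeq2 and 2 with the most abundant transcript. For passage, 7840 became 1879 with the most abundant transcript alone. The replicate block changed no other call among the 6 tested genes than those of *Gbx2* and *En2* in both comparisons of 2-DG.

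Among the 6 tested genes of the 9, signs turned only for values that were not called. For *Lhx2*, the most abundant transcript alone gave 0.17, −0.72, −0.87 and 0.89 for 2-DG, 0× and 3× against 1× glucose and 2-DG against 0× glucose, and the block 0.012 for the first. That setting gave *Otx1* −0.038 in 3× glucose. Without 1 library, log2 fold changes ran in 2-DG against 1× glucose from −0.20 to 0.13 (*Lhx2*) and −0.68 to 0.022 (*En1*). In 0× glucose they ran from −0.38 to 0.059 (*Otx1*), −0.32 to 0.24 (*Lhx2*), −0.083 to 0.90 (*En1*), −0.10 to 0.20 (*En2*) and −0.16 to 0.12 (*Gbx2*). In 3× glucose they ran from −0.10 to 0.28 (*Otx1*), −0.21 to 0.24 (*Lhx2*), −0.43 to 0.50 (*Rax*) and −0.089 to 0.14 (*Gbx2*), and in 2-DG against 0× glucose from −0.25 to 0.31 (*Lhx2*) and −0.24 to 0.28 (*Rax*). The cause of these shifts was not tested. Depth limits *Otx2*, *Six3*, *Hesx1* and *En1*, which had 26 counts or fewer in every library. It also limits *Otx1*, which had 7, 4 and 16 counts in 2-DG. At passage 16, 8 of these fell on a transcript that was at 0 in 9 of the 12 libraries. With the most abundant transcript alone, *Otx1* had −2.06 in 2-DG against 1× glucose (adjusted p = 0.0123, edgeR's quasi-likelihood test).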
